A study of Rattus norvegicus with 12 samples.

Results

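Genes of the myofibroblast and the elastic fibre, 10 in all of the 26442 gene names on the array, were followed in the injured rat kidney: Fn1, Eln, Ccn2, Tagln, Acta2, Pdgfra, Pdgfrb, Postn, Vcan and Fbn1. They were taken by gene name from the array files, in which Ccn2 carries its older name Ctgf, and every probe of each gene was kept, which gave 13 of the 30367 probes that are not controls. The groups were female F344 rats of 10 weeks, with 4 rats and so 4 arrays in each. Sham-operated rats were killed at day 7, and rats with ischemia-reperfusion injury (IRI) of the left kidney, in which blood flow to that kidney is interrupted and restored, were killed at day 3 or at day 7. RNA came from the whole left kidney, and no sham group was killed at day 3, so a difference between day 3 and sham also spans different times after surgery. The sources used here do not give the length of the ischemia.

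Myofibroblasts are contractile matrix-making cells that arise in injured tissue, in the kidney largely from resident fibroblasts and pericytes that carry PDGF receptors. They build actin bundles with the proteins of Acta2 and Tagln, and they lay down fibronectin, periostin and fibrillar matrix. Elastic fibres are made of an elastin core on a scaffold of fibrillin microfibrils, joined by fibulins and crosslinked by lysyl oxidases. The CCN family protein of Ccn2 is a secreted matricellular factor whose gene is a widely used target of the YAP and TEAD transcription factors and of TGF-beta.

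Of the 10 genes, 3 (Eln, Fn1 and Vcan) had probes at 2 places each, and their positions are given on the rat build rn4, as the files place them. The Eln probes lie on the plus strand of chromosome 12 at 23067308 to 23067449 (upstream) and 23076983 to 23077042 (downstream), with 9533 bases between them. The Fn1 probes lie on the minus strand of chromosome 9 at 70745666 to 70745725 (upstream) and 70702316 to 70702375 (downstream), with 43290 bases between them. The Vcan probes lie on the minus strand of chromosome 2 at 19714573 to 19714632 (upstream) and 19712767 to 19712826 (downstream). Whether a probe lies in an exon or an intron was not analysed here, since no annotation of that build was used. Each probe has 60 bases, and the positions of 3 of them (the upstream Eln probe, Tagln and Postn) span more than that, so their sequences are placed across a gap in the genome.

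The sequences below are those on which the readings of elastin, fibronectin, transgelin and smooth muscle actin rest. They are given as in the array files, with AATAAA, the usual polyadenylation signal, in capitals where present, and for the downstream Eln probe and the Acta2 probe 30 of the 60 bases are shown.
Eln upstream: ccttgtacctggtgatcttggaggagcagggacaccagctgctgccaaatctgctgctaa
Eln downstream, bases 22 to 51: ctgtgatagatcAATAAAatattttatttt
Fn1 upstream: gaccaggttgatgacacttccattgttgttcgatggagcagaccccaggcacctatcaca
Tagln: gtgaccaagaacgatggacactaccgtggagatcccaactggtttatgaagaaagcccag
Acta2, bases 1 to 30: ttttttAATAAAtcagacatgtgctaccct
The downstream Eln probe and the Acta2 probe were the 2 of the 13 that hold AATAAA. The Acta2 probe is listed as unmapped in the files and the Tagln probe at chromosome 8, 48902736 to 48903116, minus strand. No run of 20 bases of any of the 13 probes occurs in a probe of another gene. Only probes were compared, so whether a probe matches the RNA of a close relative such as Actg2 was not tested.

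Values are log2 of the processed probe signal, scaled by the 75th percentile of each array, and a fold change is the difference of group means with the standard error (SE) of a limma fit over all probes kept. Probes entered the fit where some group had all 4 of its arrays well above background. The 75th percentile itself was 225 to 394 intensity units on the sham arrays, 665 to 743 on those of day 3 and 422 to 562 on those of day 7, so each change is relative to a point that moved on the raw scale. Of 13 probes, 11 passed and were tested. Postn stood above background on 1 day 3 array and on no array of the other groups, and the upstream Vcan probe on none of the 12. The 4 arrays of a group come from 4 rats, and their number limits the precision. In a whole kidney, more cells of a type and more RNA per cell cannot be told apart.

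At day 3 these genes were mostly above sham. Fn1 was higher by both of its probes, and Tagln, Fbn1, Eln by its downstream probe, Pdgfra, Pdgfrb and Acta2 were also higher. Of the 11 tested probes 8 passed as higher and 1, the upstream Eln probe, as lower, that is 9 in all, at an adjusted p of 0.05 by limma with Benjamini-Hochberg adjustment. Over all 21071 probes tested, 24.5% passed as higher and 32% as lower, or 56.5% in all. The median log2 fold change was 1.17 over the 11 probes and -0.11 over all. No day 3 array overlapped a sham array for 7 of the 11 as higher and 1 as lower, against 22.4% and 28.5% of all probes (50.9% together).

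At day 7, when sham and injured kidneys were of equal time after surgery, 6 of the 11 probes passed as higher, against 8.05% of all probes, and 1, Ccn2, as lower, against 10.3% (18.3% together). The higher ones were both Fn1 probes, Fbn1, the downstream Eln probe, Pdgfra and Pdgfrb. In all 6 and in Ccn2 the arrays did not overlap with sham, against 9% of all probes as higher and 12.3% as lower (21.3% together). The median log2 fold change was 1.10, against -0.06 over all probes. Between the injured groups 5 probes (Acta2, Ccn2, both of Fn1, Tagln) passed as lower at day 7 than at day 3, against 13.6% of all probes, and none passed as higher by limma, against 17.1%, with 30.8% of all probes called in either direction. None had an unadjusted p under 0.05 as higher. For 5 of the 11 probes (Acta2, both of Fn1, Tagln and Fbn1) all day 7 arrays lay below all day 3 arrays, against 17.8% of all probes, and for none above, against 17.8% too (35.6% together). The median was -0.87 over the 11 probes and 0.03 over all. Both comparisons with sham use the same 4 sham arrays.

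The scaling of the arrays moves all of these values together. Scaled to the total signal, the median of all probes was 0.17 at day 3 and 0.17 at day 7 against sham. The share of called probes that were higher went from 43.4% to 59.8% at day 3, and from 43.9% to 78.2% at day 7, where the authors' value table gave 55.9%. The direction of the 9 probes called at day 3, of the 7 at day 7 and of the 5 that differed between days was the same under both scalings, and the call of the upstream Eln probe at day 3 ended under total signal (-0.20, adjusted p = 0.182). Under normexp background correction the calls of 6 of the 9 probes at day 3, of 1 of the 7 at day 7 (upstream Fn1) and of none of the 5 remained, and without the spots below their local background that correction gave 11, 7 and 6 called probes. Among the day 7 values that lost their call under normexp, the downstream Fn1 probe was at 0.24 (adjusted p = 0.774), Fbn1 at 0.76 (adjusted p = 0.498), the downstream Eln probe at 1.30 (adjusted p = 0.0856) and Ccn2 at -0.80 (adjusted p = 0.522). Pdgfra (0.87) and Pdgfrb (0.86) lost theirs there too. At day 3 Acta2 was at 0.26 (adjusted p = 0.418), and the upstream Eln probe (-0.57) and Pdgfrb (0.66) also lost their calls. From day 3 to day 7 the values under normexp were -0.28 for Ccn2, -0.76 for Acta2, -1.33 and -1.21 for the upstream and downstream Fn1 probes and -1.73 for Tagln.

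**Figure D1:**
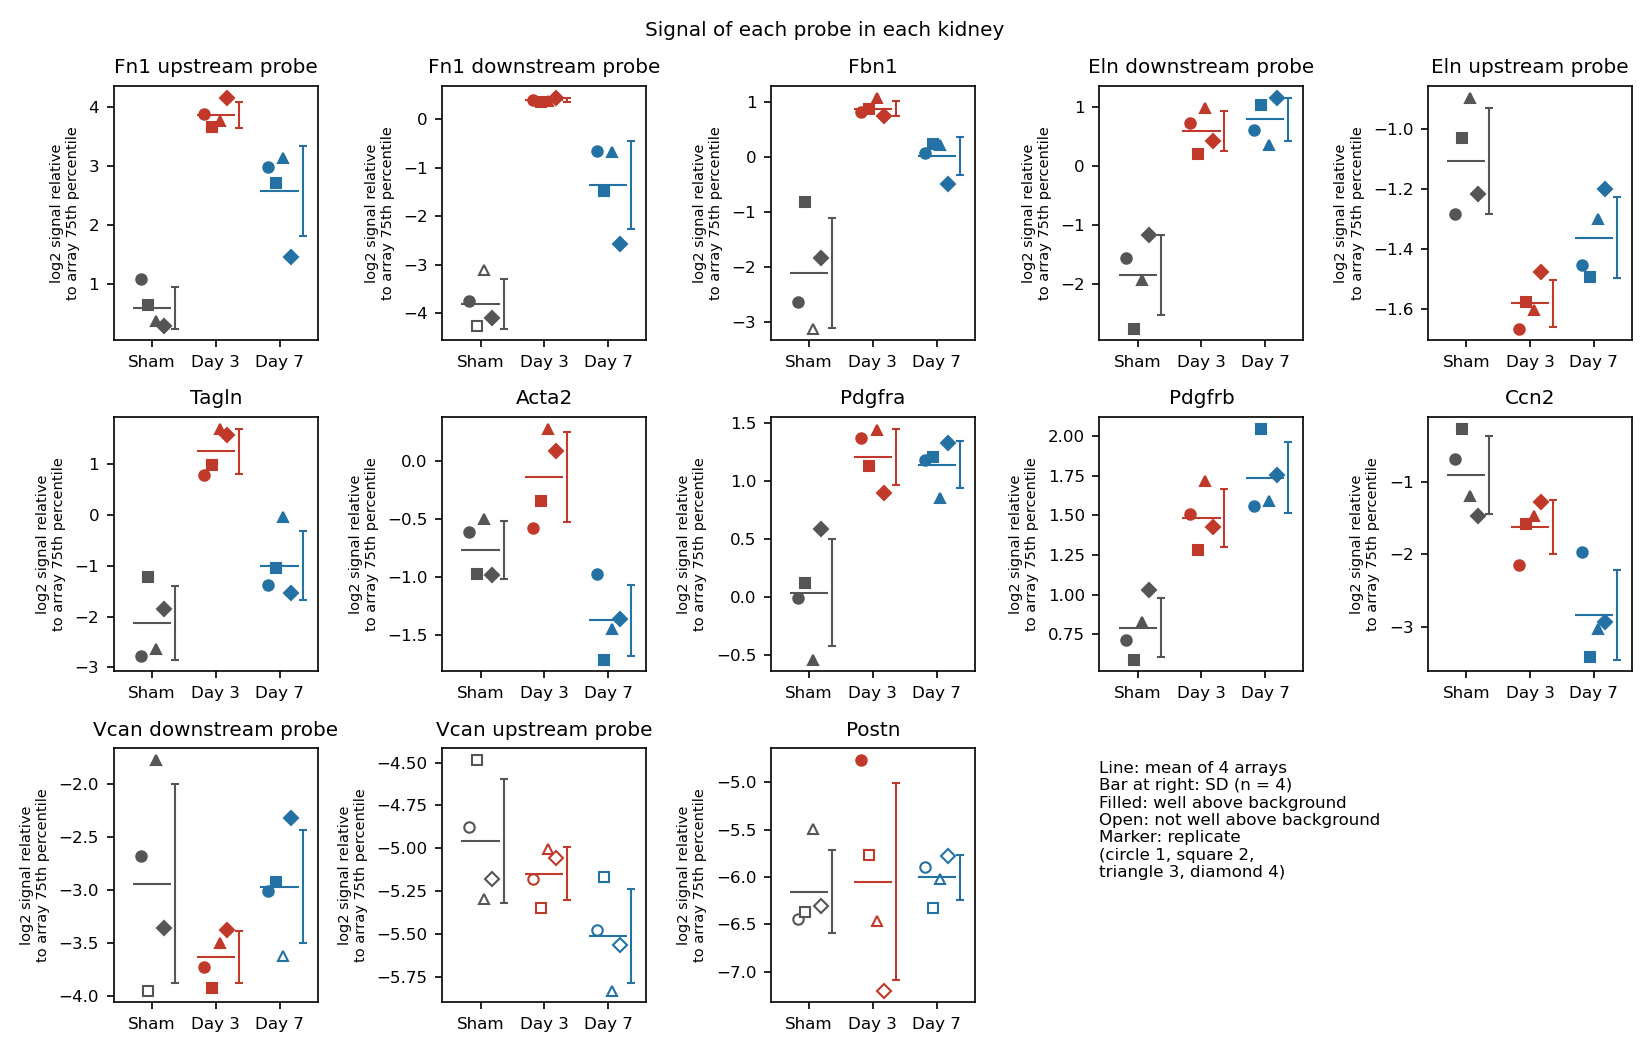
Log2 signal scaled by the array's 75th percentile (y axis, log2 units, a separate range in each panel) for each of the 13 probes in the 4 sham, 4 day 3 and 4 day 7 kidneys. Points are arrays, open where the probe was not well above background, lines are means and bars the SD (n = 4). Tagln and both Fn1 probes peak at day 3, the downstream Eln probe is high on both days, Ccn2 is lowest at day 7, and Postn and the upstream Vcan probe are almost wholly open points.

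Fibronectin, the glycoprotein that Fn1 encodes and on which other matrix proteins assemble, was compared first. The upstream probe read 1.08, 0.64, 0.37 and 0.29 in sham replicates 1 to 4. It read 3.88, 3.66, 3.76 and 4.16 at day 3, and 2.99, 2.72, 3.13 and 1.46 at day 7. The groups did not overlap, day 3 was highest, and day 7 replicate 4 lay well below the other 3 kidneys of its group. The rise was 9.64-fold at day 3 (log2 fold change 3.27 ± 0.32 SE, adjusted p = 1.68e-05) and 3.95-fold at day 7 (1.98 ± 0.32, adjusted p = 0.00258), and day 7 was lower than day 3 by -1.29 ± 0.32 (adjusted p = 0.0133).

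The downstream Fn1 probe read -3.76, -4.27, -3.10 and -4.11 in sham, 0.40, 0.35, 0.37 and 0.44 at day 3, and -0.66, -1.48, -0.68 and -2.58 at day 7. It showed the same order of groups, with day 7 replicate 4 again lowest of its group, but it stood above background on 2 of 4 sham arrays. Its log2 fold changes were 4.20 ± 0.38 at day 3 (adjusted p = 1.09e-05), 2.45 ± 0.38 at day 7 (adjusted p = 0.00206) and -1.74 ± 0.38 for day 7 against day 3 (adjusted p = 0.00735). On the same array, the upstream minus downstream difference changed by -0.93 at day 3 (two-sided exact permutation p = 0.0857) and by -0.47 at day 7 (exact p = 0.2). That test, whose smallest possible p is 0.0286, did not separate the folds of the probes with these values. Under normexp the difference changed the other way, by 1.76 at day 3 and 1.64 at day 7, each at exact permutation p = 0.0286.

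Fbn1 encodes fibrillin-1, the main protein of microfibrils. Its probe (chromosome 3, 112608662 to 112608721, minus strand) read -2.64, -0.83, -3.13 and -1.85 in sham, 0.81, 0.87, 1.07 and 0.74 at day 3, and 0.07, 0.23, 0.21 and -0.50 at day 7. The day 3 kidneys lay close together and the sham kidneys far apart, with the probe above background on 3 of 4 sham arrays. The rise was 7.92-fold at day 3 (2.99 ± 0.39, adjusted p = 8.59e-05) and 4.33-fold at day 7 (2.11 ± 0.39, adjusted p = 0.00478). All day 7 arrays lay below all day 3 arrays, but the change of -0.87 ± 0.39 did not pass (adjusted p = 0.110), and it passed when those groups were fitted alone (adjusted p = 0.0101).

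Eln, which encodes elastin, gave unlike readings at its probes, with a rise at the downstream one only. The downstream probe read -1.55, -2.75, -1.92 and -1.16 in sham, 0.72, 0.20, 0.98 and 0.43 at day 3, and 0.61, 1.03, 0.36 and 1.15 at day 7. Every injured kidney was above every sham kidney and the injured groups overlapped. It rose 5.38-fold at day 3 (2.43 ± 0.32, adjusted p = 7.94e-05) and 6.20-fold at day 7 (2.63 ± 0.32, adjusted p = 0.000566), with 0.20 between the days (95% interval -0.49 to 0.89, adjusted p = 0.648).

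The upstream Eln probe read -1.28, -1.03, -0.90 and -1.22 in sham, -1.66, -1.58, -1.60 and -1.48 at day 3, and -1.45, -1.49, -1.30 and -1.20 at day 7. Here the day 3 kidneys lay below all sham kidneys, within a narrow span. The change was -0.47 ± 0.13 at day 3 (adjusted p = 0.0102) and -0.25 ± 0.13 at day 7 (adjusted p = 0.206). The limma call at day 3 was lost under total signal (-0.20, adjusted p = 0.182) and under normexp (-0.57, adjusted p = 0.146). On the same array, the downstream minus upstream difference spanned -1.72 to 0.06 in the sham kidneys, 1.78 to 2.58 in those of day 3 and 1.66 to 2.52 in those of day 7. The change was thus 2.90 at day 3 and 2.89 at day 7, and the two-sided exact permutation test gave p = 0.0286 for both, the smallest possible with 4 kidneys per group, with adjusted p = 0.0857 over 9 such probe tests. So the rise of Eln is a reading of the probe that holds the polyadenylation signal, and the probe placed across a genomic gap further upstream did not show it.

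The matrix genes were also set against each other on the same array, by the downstream Eln and upstream Fn1 probes. From day 3 to day 7 the Eln minus Fbn1 difference rose by 1.07, from a span of -0.67 to -0.08 to one of 0.15 to 1.65 without overlap (two-sided exact permutation p = 0.0286, adjusted p = 0.0857 over the 15 tests of gene pairs). Elastin signal thus held at day 7 relative to fibrillin-1, by a difference that does not pass once adjusted. Against sham the same difference changed by -0.56 at day 3 (exact p = 0.543) and 0.52 at day 7 (exact p = 0.714), within the wide span of the sham kidneys (-1.92 to 1.21). The Fn1 minus Fbn1 difference changed by 0.28, -0.13 and -0.42 in the 3 comparisons, with exact permutation p of 0.6857, 0.8286 and 0.2. Under normexp it changed by 1.75 at day 3 and by -0.63 between the days, each at the smallest exact permutation p of 0.0286, and by 1.12 at day 7 (exact p = 0.0571).

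**Figure D2:**
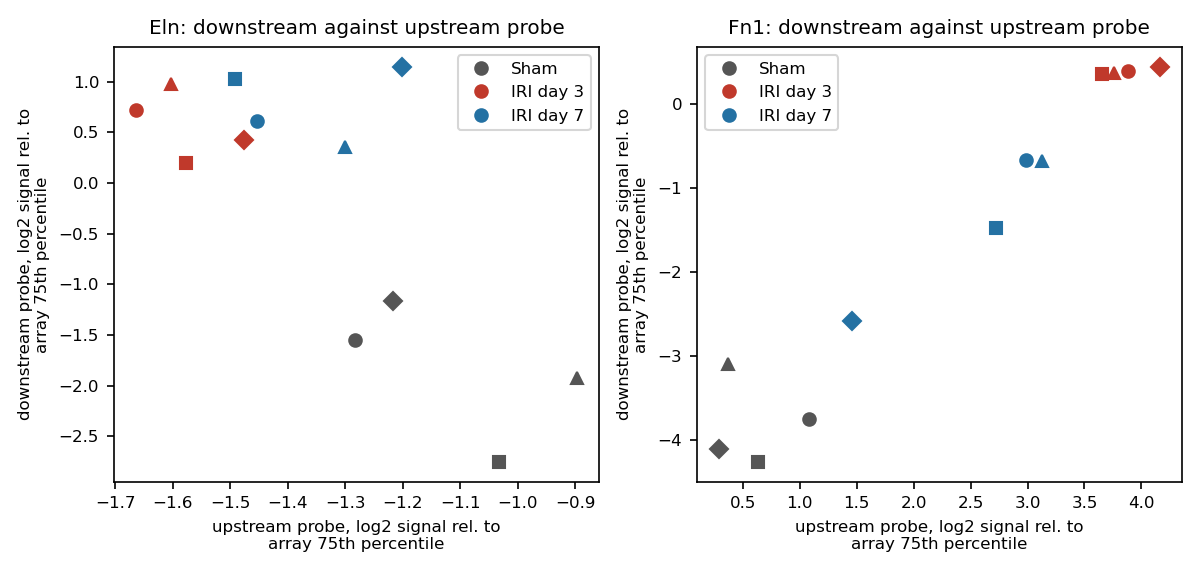
Log2 signal of the downstream probe (y axis) against the upstream probe (x axis) of Eln and of Fn1, both scaled by the array's 75th percentile, 1 point per kidney, with marker shapes for replicates 1 to 4 and colours for groups. In Fn1 all sham kidneys lie at the lower left, whereas in Eln the sham kidneys lie at the lower right and the injured ones, higher on the downstream probe by 2.43 and 2.63 on average, at the upper left.

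Tagln encodes transgelin (SM22), an actin-binding protein of smooth muscle and myofibroblasts. It read -2.78, -1.22, -2.64 and -1.86 in sham, 0.78, 0.99, 1.68 and 1.58 at day 3, and -1.37, -1.04, -0.04 and -1.54 at day 7. Day 3 stood above both other groups without overlap, while sham and day 7 overlapped through sham replicate 2. The rise at day 3 was 10.4-fold (3.38 ± 0.40, adjusted p = 4.41e-05), above the change of 99.2% of all probes, and day 7 was lower than day 3 by -2.26 ± 0.40 (adjusted p = 0.00271). At day 7 the difference from sham was 1.13 ± 0.40 (adjusted p = 0.0692). It passed with a block for the slide (1.24, adjusted p = 0.0356), under total signal (1.36, adjusted p = 0.0297) and without sham replicate 2 (1.43, adjusted p = 0.0300). It went as low as 0.81 without day 7 replicate 3 (adjusted p = 0.178), and it was 0.079 under normexp background correction (adjusted p = 0.909).

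Acta2, the gene of alpha smooth muscle actin and the usual marker of the myofibroblast, moved less. It read -0.61, -0.98, -0.50 and -0.98 in sham, -0.57, -0.34, 0.28 and 0.08 at day 3, and -0.97, -1.72, -1.45 and -1.37 at day 7. Day 3 overlapped sham through its replicate 1, and day 7 lay below day 3 in every kidney. The rise at day 3 was 1.55-fold (0.63 ± 0.22, adjusted p = 0.0301), and the call was lost without sham replicate 2 (0.56, adjusted p = 0.0714), sham replicate 4 (0.56, adjusted p = 0.0737), day 3 replicate 3 (0.49, adjusted p = 0.0860) or day 3 replicate 4 (0.56, adjusted p = 0.0818). Day 7 differed from sham by -0.61 ± 0.22 (adjusted p = 0.0778) and was lower than day 3 by -1.24 ± 0.22 (adjusted p = 0.00295).

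Both contractile genes are also made by the muscle of blood vessels, so each was set against Myh11, the smooth muscle myosin heavy chain, on the same array. Myh11 itself fell by 0.90 ± 0.32 at day 3 (adjusted p = 0.0303) and by 1.17 ± 0.32 at day 7 (adjusted p = 0.0266) on the log2 scale. The Tagln minus Myh11 difference ran from -2.95 to -0.63 in sham, from 1.48 to 3.26 on day 3, and from -0.28 to 1.26 on day 7, with no overlap between any groups. It changed by 4.29 at day 3, by 2.30 at day 7 and by -1.98 from the earlier to the later day, and the two-sided exact permutation test gave p = 0.0286 for all of them, with adjusted p = 0.0857 over 15 tests of gene pairs. The Acta2 minus Myh11 difference ran from -0.81 to -0.20 in sham and 0.15 to 1.76 at day 3, a change of 1.53 (exact p = 0.0286, adjusted p = 0.0857). At day 7 it ran from -0.95 to 0.72, and its change of 0.57 from sham gave an exact permutation p of 0.257. Thus, relative to this vascular muscle gene, Tagln was higher than in sham on both days and Acta2 at day 3, by differences that do not pass once adjusted. Under normexp the Tagln difference at day 7 was 0.89 (exact permutation p = 0.0857) and the Acta2 difference at day 3 was 0.999 (exact p = 0.0571).

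**Figure D3:**
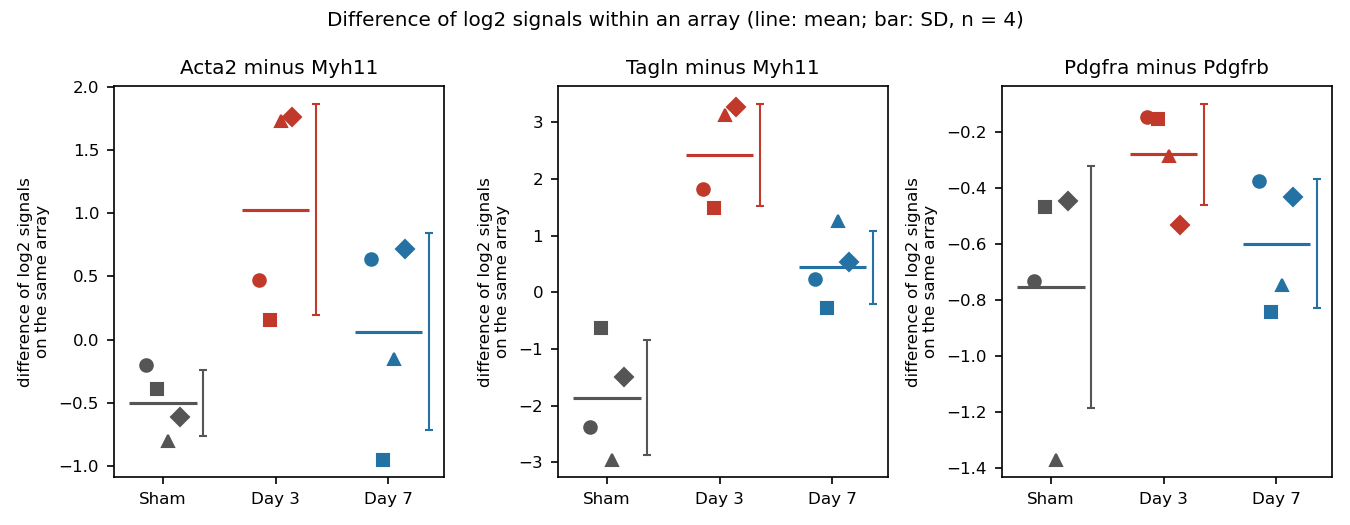
Differences of log2 signals on the same array (y axis) for Acta2 minus Myh11, Tagln minus Myh11 and Pdgfra minus Pdgfrb in sham, day 3 and day 7 kidneys, with the mean as a line and the SD as a bar (n = 4). The Tagln minus Myh11 difference separates all 3 groups, with day 3 between 1.48 and 3.26, while Pdgfra minus Pdgfrb overlaps between groups.

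The receptors of platelet-derived growth factor, tyrosine kinases that drive the growth and migration of fibroblasts and pericytes, were higher on both days. Pdgfra (chromosome 14, 35369708 to 35369767, minus strand, 10 spots per array) read -0.01, 0.12, -0.54 and 0.58 in sham, 1.36, 1.13, 1.43 and 0.90 at day 3, and 1.18, 1.21, 0.85 and 1.32 at day 7. Pdgfrb (chromosome 18, 57053387 to 57053446, plus strand) read 0.72, 0.59, 0.83 and 1.03 in sham, 1.51, 1.28, 1.72 and 1.43 at day 3, and 1.56, 2.05, 1.59 and 1.76 at day 7. In both genes no injured kidney overlapped a sham kidney, and the injured groups overlapped each other.

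Pdgfra rose 2.25-fold at day 3 (1.17 ± 0.22, adjusted p = 0.00102) and 2.15-fold at day 7 (1.10 ± 0.22, adjusted p = 0.00741). Pdgfrb rose 1.62-fold at day 3 (0.69 ± 0.16, adjusted p = 0.00325) and 1.93-fold at day 7 (0.95 ± 0.16, adjusted p = 0.00305). Between the days the change was -0.07 for Pdgfra (95% interval -0.56 to 0.43, adjusted p = 0.843) and 0.25 for Pdgfrb (-0.10 to 0.60, adjusted p = 0.240). The Pdgfra minus Pdgfrb difference on an array changed by 0.47 at day 3 (exact permutation p = 0.0857) and 0.15 at day 7 (exact p = 0.629), so these data did not separate the receptors.

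Ccn2 was the 1 member whose probe was called lower than sham at day 7. Its probe (chromosome 1, 21327574 to 21327633, minus strand, 10 spots per array) read -0.68, -0.26, -1.19 and -1.47 in sham, -2.15, -1.58, -1.47 and -1.27 at day 3, and -1.97, -3.42, -3.04 and -2.93 at day 7. Sham and day 3 overlapped, and every day 7 kidney lay below every sham kidney. The change was -0.72 ± 0.34 at day 3 (adjusted p = 0.0863), and at day 7 Ccn2 fell 3.83-fold (-1.94 ± 0.34, adjusted p = 0.00335), below the change of all but 0.693% of probes. Between the days it was -1.22 ± 0.34 (adjusted p = 0.0191) with overlap through day 7 replicate 1. That call was lost without day 3 replicate 4 (-1.10, adjusted p = 0.0588) or day 7 replicate 2 (-1.03, adjusted p = 0.0551). The day 3 difference passed without sham replicate 4 (-0.91, adjusted p = 0.0451).

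The genes Ccn2 and Acta2 carry in their promoters GGAATG, the core of the TEAD site (either strand, CATTCC included). The letters come from RefSeq on the assembly GRCr8, with the 250 bases before the annotated start, 5' to 3' on the strand of the gene, and the GGAATG matches in capitals.
Ccn2, chr1:22624615-22624864, minus strand: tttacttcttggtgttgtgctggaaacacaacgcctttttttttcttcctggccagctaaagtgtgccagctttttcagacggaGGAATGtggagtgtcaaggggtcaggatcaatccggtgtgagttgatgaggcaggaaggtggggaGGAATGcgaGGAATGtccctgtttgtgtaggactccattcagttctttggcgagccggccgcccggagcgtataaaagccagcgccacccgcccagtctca
Acta2, chr1:241172504-241172753, minus strand: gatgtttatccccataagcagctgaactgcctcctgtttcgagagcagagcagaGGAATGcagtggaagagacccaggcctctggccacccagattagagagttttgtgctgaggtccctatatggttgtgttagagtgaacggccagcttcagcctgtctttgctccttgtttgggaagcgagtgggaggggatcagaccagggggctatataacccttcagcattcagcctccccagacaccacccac
The Ccn2 window holds 3 matches and the Acta2 window 1, and 12.1% of 33469 rat promoter windows of this length hold at least 1. Windows were at hand for 6 of the 10 genes, and those of Vcan, Postn, Fbn1 and Pdgfra held none. Eln, Fn1, Tagln and Pdgfrb had no window. The CArG box, the site of serum response factor, was matched in its strict form in no window of these genes and in 1.497% of all. That form has only A or T between CC and GG. Forms with a base off it were not counted, so the lack of a match does not mean that the site is absent. TATAAA on either strand was found once each in Ccn2 and Postn and in 12.9% of all windows. Such a match is a run of letters and was not measured as binding. Its part in any change of these genes was not tested.

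Vcan, which encodes the large proteoglycan versican, showed no call with the values used here. Its downstream probe read -2.68, -3.96, -1.77 and -3.36 in sham, -3.73, -3.93, -3.50 and -3.38 at day 3, and -3.01, -2.93, -3.63 and -2.32 at day 7, and it stood above background on 3, 4 and 3 of the 4 arrays. Its changes were -0.69 (95% interval -1.58 to 0.19, adjusted p = 0.165) at day 3 and -0.03 (-0.92 to 0.86, adjusted p = 0.969) at day 7, the latter with a sign that turned under total signal (0.21) and in the authors' table (0.05). All groups overlapped, and the sham kidneys alone spanned over 2 log2 units. The day 3 change passed by limma under normexp fitted without spots below their local background (-0.76, adjusted p = 0.00614). It also passed without sham replicate 2 (-1.03, adjusted p = 0.0334), but within slide 2 it was 0.40.

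Postn encodes periostin, a matricellular protein of fibrotic kidney. Its probe (chromosome 2, 143560792 to 143561828, plus strand) has the sequence shown here because its reading decides whether periostin can be followed on this array.
Postn: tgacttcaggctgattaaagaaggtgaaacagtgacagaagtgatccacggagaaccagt
It read -6.45, -6.37, -5.50 and -6.31 in sham, -4.76, -5.76, -6.47 and -7.20 at day 3, and -5.89, -6.33, -6.02 and -5.78 at day 7. The day 3 kidney at -4.76 was the 1 array of 12 on which the probe was well above background, and no change can be read.

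**Figure D4:**
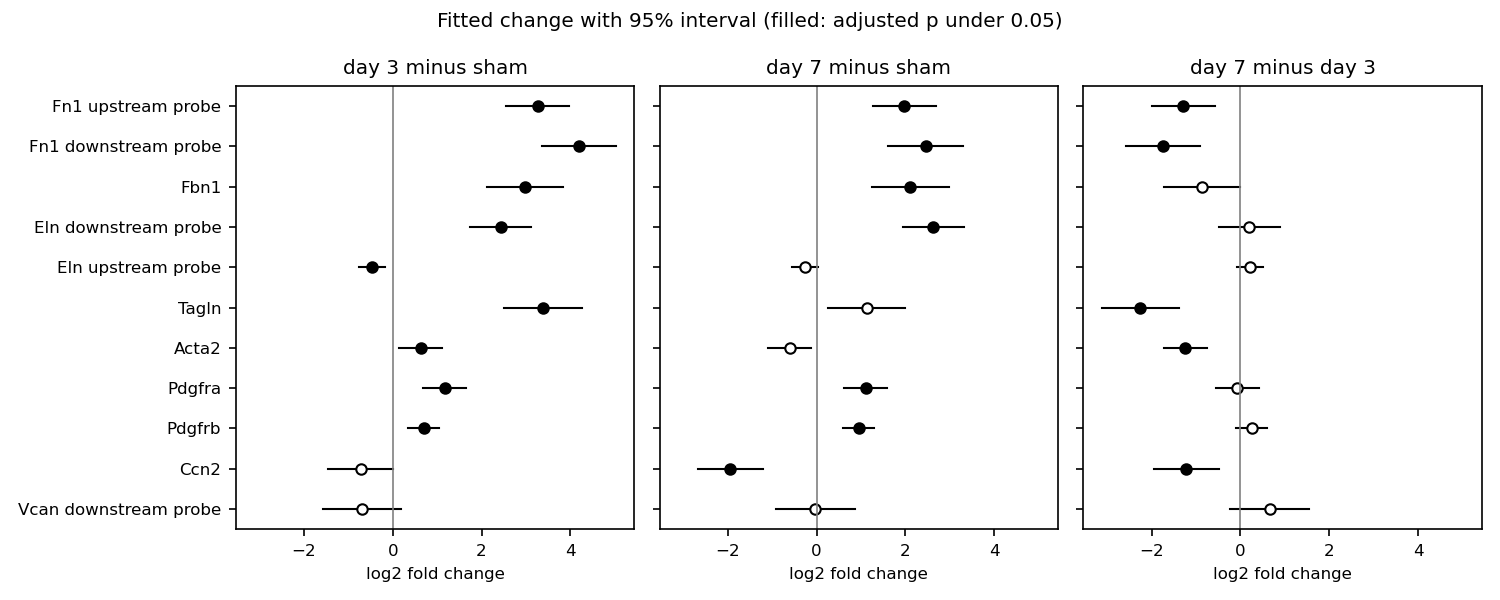
Fitted log2 fold change (x axis) with its 95% interval for the 11 tested probes in the 3 comparisons, filled where the adjusted p was under 0.05. Both Fn1 probes and Tagln have the largest day 3 changes (3.27, 4.20 and 3.38), the PDGF receptors and the downstream Eln probe are near 0 between the days, and Ccn2 lies at -1.94 at day 7.

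Of 18 tested genes of elastic fibre assembly, read by their brightest probe, 9 were higher, 3 lower and 6 not called at day 3. At day 7, 7 were higher and none lower by limma (9 and none at an unadjusted p of 0.05), and between the days 1 was higher and 1 lower. The medians were 0.56, 0.70 (0.43 with 1 gene at its lower bound) and -0.25, against -0.13, -0.07 and 0.05 over all 18517 genes, of which 24.1% were higher and 33% lower at day 3, 8.05% and 10.5% at day 7, and 17.9% and 13.3% from day 3 to day 7. Fbln1, the gene of a fibulin that binds elastin and fibronectin, had log2 fold changes of 3.84 ± 0.56 at day 3 and 2.68 ± 0.56 at day 7 with 1 of 4 sham arrays above background. Lox, a lysyl oxidase that crosslinks elastin and collagen, rose by 2.25 ± 0.24 and 1.65 ± 0.24. Mfap4, a microfibril-associated glycoprotein, rose by 2.25 ± 0.25 and 1.80 ± 0.25. The fibulins Efemp1 and Efemp2 parted between the days, at 1.13 ± 0.28 (adjusted p = 0.0129) and -0.66 ± 0.19 (adjusted p = 0.0214). At day 3 Efemp1 was below sham (-0.83) and Efemp2 above it (1.96).

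The actin and smooth muscle contractile apparatus showed the day 3 peak of Tagln and Acta2. Of 17 tested genes 11 were higher and 2 lower at day 3 (median 0.98), 2 higher and 1 lower at day 7 (median 0.12). Between the days none was higher by limma (2 at an unadjusted p of 0.05) and 11 were lower (median -0.72). Of all genes 24.1% were higher and 33% lower at day 3, 8.05% and 10.5% at day 7, 17.9% and 13.3% between the days. The actin crosslinker Flna rose by 2.67 ± 0.28, the tropomyosin gene Tpm4 by 2.22 ± 0.33 and the caldesmon gene Cald1 by 1.59 ± 0.21 at day 3. From day 3 to day 7 Flna fell by 2.02 ± 0.28, Tpm4 by 1.87 ± 0.33 and Myl9, a myosin light chain, by 1.82 ± 0.25 on the log2 scale. At day 7 Csrp1 (0.80 ± 0.19) and Tpm1 (0.76 ± 0.19) were still above sham. The genes lower than sham at day 3 were Myh11 (-0.90) and Actg2, the enteric smooth muscle actin (-1.06 ± 0.31), which are made mainly by mature smooth muscle. Among other smooth muscle genes Des was higher at day 3 (0.98 ± 0.21, adjusted p = 0.00207 by limma). Smtn (0.15), Mylk (-0.15) and Myocd (-0.56) were not called.

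Among 6 tested PDGF ligand and pathway genes 3 were higher and 2 lower at day 3, 1 higher at day 7 and 1 lower from one day to the other (medians 0.43, 0.01 and -0.34). The shares of all genes called higher and lower were 24.1% and 33%, 8.05% and 10.5%, and 17.9% and 13.3%. So 2 lower of 6 at day 3 is near the share of all genes. The ligand gene Pdgfb rose by 2.21 ± 0.39 at day 3 (adjusted p = 0.000623) and by 1.54 ± 0.39 at day 7 (adjusted p = 0.0206), on the same days as both receptors. The adaptor gene Grb2 rose by 0.85 ± 0.22 at day 3 and fell by 0.63 ± 0.22 from day 3 to day 7, and the ligand gene Pdgfa rose by 0.61 ± 0.17 at day 3. The 2 genes lower at day 3 were the ligand gene Pdgfc (-0.38 ± 0.15) and Plcg1 (-0.61 ± 0.19).

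In the CCN family and other matricellular genes, Ccn2 had a relative that moved the other way. Ccn1, also a YAP and TEAD target in other systems, rose by 3.29 ± 0.40 at day 3 (adjusted p = 4.9e-05) and 1.35 ± 0.40 at day 7 (adjusted p = 0.0352), with -1.94 ± 0.40 between the days. Of the 9 tested genes, none of them in the set of 10, 5 were higher and 2 lower at day 3 (median 0.82), 3 higher and 1 lower at day 7 (0.54), and 1 lower between the days (-0.25), where limma called none higher, also without adjustment. Among all genes the shares higher and lower were 24.1% and 33%, 8.05% and 10.5%, and 17.9% and 13.3% in the 3 comparisons. Tnc, the gene of the injury matrix protein tenascin-C, had a log2 fold change of 3.48 ± 0.75 at day 3 with 1 of 4 sham arrays above background. Tnxb, a tenascin of resting connective tissue, fell by 1.58 ± 0.29 at day 3 and 1.23 ± 0.29 at day 7, and Spon1 rose by 0.71 ± 0.15 at day 7.

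The proteoglycan list, to which Vcan belongs by kind, was divided. Of 10 tested genes 4 were higher and 5 lower at day 3, 2 higher and 1 lower at day 7, and 3 higher and 1 lower from one day to the other, around medians of -0.47, -0.02 and 0.34. For all genes these shares were 24.1% and 33%, 8.05% and 10.5%, and 17.9% and 13.3%. The day 3 median turned to 1.08 over those of its probes above background on all 12 arrays. Hapln1, which links hyaluronan to versican and aggrecan, was at -2.19 ± 0.37 at day 3 and above background there on 1 of 4 arrays. The small leucine-rich proteoglycan genes Aspn (-2.02 ± 0.32) and Fmod (-1.96 ± 0.53) were above background on 3 of 4 day 3 arrays. Dcn (1.05 ± 0.23) and the hyaluronan receptor gene Cd44 (0.89 ± 0.25) were higher and Prelp (-0.77 ± 0.21) lower at day 7. Between the days Hapln1 (1.40 ± 0.37) and Aspn (1.21 ± 0.32) were higher, and Bgn, the biglycan gene, was lower (-0.87 ± 0.21). The 4 genes called higher than sham at day 3 were Bgn (1.32 ± 0.21), Cd44 (1.30 ± 0.25), Dcn (1.08 ± 0.23) and Lum. Lum was at 0.85 or more, with no sham array above background.

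Fibronectin receptors and crosslinking enzymes changed less than Fn1. Of 8 tested genes 5 were higher and 2 lower at day 3, 2 and 2 at day 7, and 1 and 1 from one day to the other, with medians of 0.85, 0.16 and 0.13. Shares of all genes higher and lower were 24.1% and 33%, 8.05% and 10.5%, and 17.9% and 13.3%. Tgm2, the transglutaminase that crosslinks fibronectin, rose by 1.31 ± 0.23 at day 3 and 1.67 ± 0.23 at day 7, and the syndecan gene Sdc4 by 0.95 ± 0.16 at day 7. Tns1, a tensin that ties integrins to actin, fell by 1.82 ± 0.16 and 1.14 ± 0.16 and then stood 0.68 ± 0.16 higher at day 7 than at day 3. The integrin gene Itgb5 fell by 1.09 ± 0.24 at day 3. Itgb1, the beta subunit of the main fibronectin receptor, rose by 1.06 ± 0.15 at day 3 and fell by 0.71 ± 0.15 from day 3 to day 7. Itga5 was also higher at day 3 (0.85 ± 0.24).

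**Figure D5:**
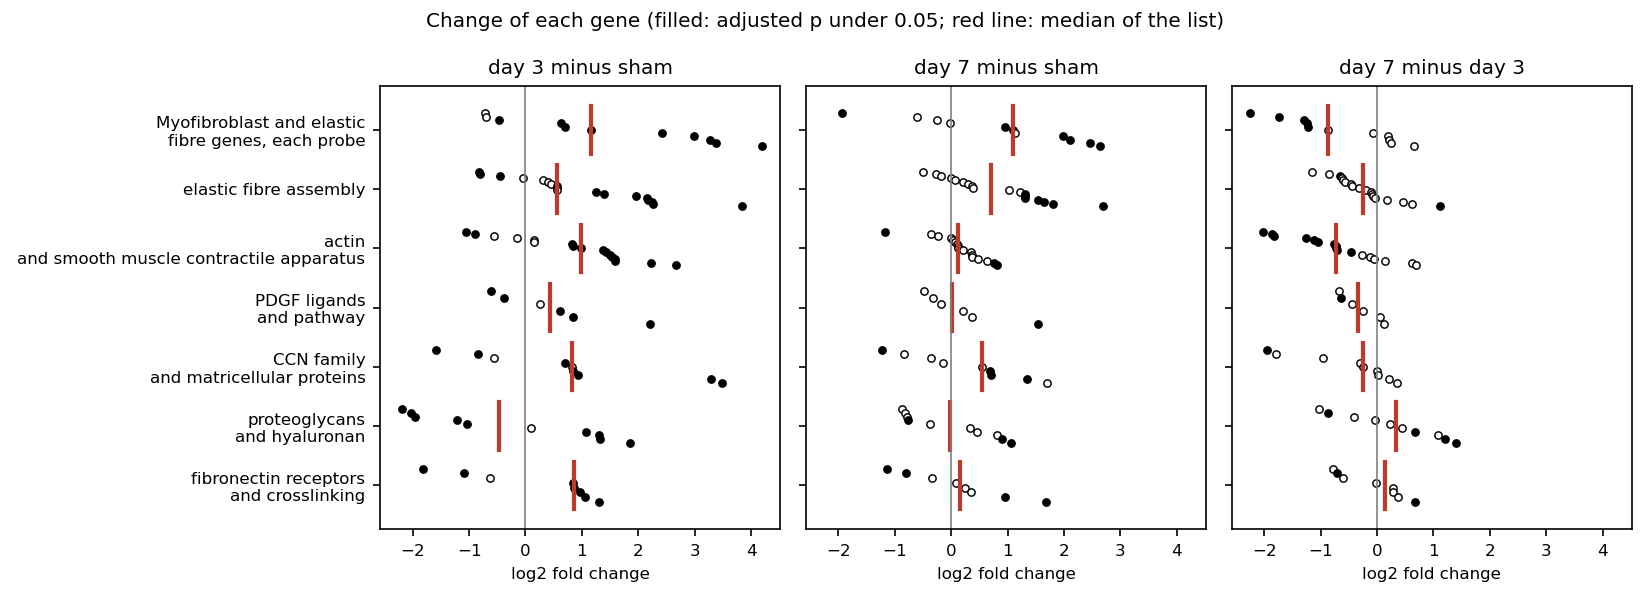
Log2 fold change of each tested probe of the 10 genes (top) and of each tested gene of the 6 pathway lists (x axis) in the 3 comparisons. Points are filled where the adjusted p was under 0.05, and the red line is the median, for example 0.98 at day 3 and -0.72 between the days for the contractile list.

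Markers of the cells that a whole kidney holds moved at the same time, and their part in the changes of the 10 genes was not tested. Over all 18517 genes, 24.1% were called higher and 33% lower at day 3, and 8.05% and 10.5% at day 7. Of 17 tested fibroblast and pericyte markers 6 were higher and 1 lower at day 3, and 5 higher and none lower by limma at day 7 (6 and 1 at an unadjusted p of 0.05), with medians of 0.42 and 0.45. The 1 lower at day 3 was Notch3 (-0.86 ± 0.17). Of the other markers of pericytes, Rgs5 (-0.49), Cspg4 (0.06) and Mcam (0.29) were not called at day 3. The list's largest change was that of S100a4, which some fibroblasts and also immune cells express (4.30 ± 0.31 and 2.06 ± 0.31). Its summed signal, in multiples of the 75th percentile, ran from 19.97 to 31.03 on sham arrays, 89.6 to 129.9 on day 3 arrays and 56.2 to 76.9 on day 7 arrays. A sum follows the brightest genes, here the collagen genes Col3a1 and Col1a1, with day 3 means of 5.54 and 4.99 on the log2 scale. It is thus not a reading of the list's other markers. Of 5 tested vascular smooth muscle markers, the cells that share Acta2 and Tagln, 1 was higher and 2 lower at day 3 and 1 lower at day 7, with summed signals of 2.29 to 3.27, 2.41 to 3.52 and 2.17 to 2.63. Its defining markers Cnn1 and Lmod1 did not pass the background filter, and its largest change between the days was that of Des (-0.77 ± 0.21). Des was also the marker higher at day 3 (0.98 ± 0.21).

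Of 9 tested macrophage markers 6 were higher at day 3 and 3 at day 7, led by Trem2 (3.82 ± 0.30 and 3.36 ± 0.30), with summed signals of 10.3 to 14.4 (sham), 25.4 to 34.1 (day 3) and 19.2 to 27.3 (day 7). The shares of all genes called higher were 24.1% and 8.05% on these days, and those called lower 33% and 10.5%. Of 7 T lymphocyte markers 3 were higher at day 3 and none at day 7 by limma (4 at an unadjusted p of 0.05 on each day), led at day 3 by Cd3g (1.91 ± 0.40, above background on 2 of 4 sham arrays), with sums of 1.27 to 2.37, 2.30 to 3.30 and 2.13 to 3.17. Proximal tubule markers, by which the labelled tissue can be recognised, fell at day 3 in 8 of 10 genes (median -3.37) and at day 7 in 3 (median -0.94). On sham arrays their summed signal was 410 to 427, on day 3 arrays 31.8 to 113 and on day 7 arrays 144 to 294, and Pck1 fell by 6.29 ± 0.45 and by 3.63 ± 0.45 on the log2 scale. The part of this fall in the relative rise of the matrix genes was not tested.

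Endothelial markers were lower in 6 of 10 genes at day 3 and 4 at day 7, led by Vwf (-2.99 ± 0.31 and -1.59 ± 0.31), with sums of 24.8 to 31.3, 13.1 to 18.5 and 12.4 to 26.0. Podocyte markers were lower in 3 of 7 and 2 of 7, led by Nphs1 (-2.68 ± 0.30 and -1.66 ± 0.30), with sums of 15.6 to 20.6, 5.04 to 6.72 and 6.49 to 13.6. Among all genes 33% were called lower at day 3 and 10.5% at day 7. Of 12 markers of adipose tissue, adrenal gland and skeletal muscle 4 passed the background filter. They summed to between 1.05 and 1.75 on all 12 arrays, and Acta1, the skeletal muscle actin gene, was higher by 0.65 ± 0.16 at day 3 and 0.52 ± 0.16 at day 7.

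The genes whose pattern over the 12 kidneys was nearest to each of the 9 measurable genes were found among 12451 named genes by the root mean square difference of centred log2 values. Each gene was read by its brightest probe, that is the downstream one of Eln and Vcan and the upstream one of Fn1. The nearest to the downstream Eln probe were Mmp2, a gelatinase that acts on elastin and collagen (0.28 log2 units), Slpi (0.40) and Cd53 (0.47). That probe had an SD of 1.27, and the upstream Eln probe was not searched. Fn1 was nearest to Anxa5 (0.29), S100a11 (0.30) and Phldb3 (0.31), and Fbn1 to Glipr1 (0.33), Prr13 and Sf3b3 (both 0.39). Pdgfra was nearest to Abca8a (0.19), Trim35 (0.20) and Olfml3 (0.21), and Pdgfrb to Impa2 (0.17) and Ece1 (0.18). Acta2 was nearest to Ppp2r2a (0.27), Farsb (0.29) and Bysl (0.30), and Ccn2 to Wnt5a (0.45), Yaf2 (0.47) and Car4 (0.50). Tagln was nearest to Gpx2 (0.50), Aida and Dscc1 (both 0.55), with an SD of 1.51 of its own, and Vcan to Trim40 (0.23), Map2 (0.24) and Acp4 (0.25). These distances describe 12 arrays that share their groups and slides.

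The arrays lay on 3 slides, each with all 3 groups, and changes were also read within each slide. At day 3 the upstream Fn1 probe rose by 3.07, 3.38 and 3.29 on slides 1, 2 and 3, Tagln by 4.00, 2.40 and 3.63, the downstream Eln probe by 2.33, 3.33 and 2.12, and Fbn1 by 3.32, 1.60 and 4.00. At day 7 the differences from sham were 0.92, 0.73 and 1.80 for Pdgfra, between 0.83 and 1.17 for Pdgfrb, and -2.35, -2.77 and -1.26 for Ccn2. Acta2 differed from sham by 1.08, 0.73 and 0.16 at day 3, the last close to 0. With the slide as a block in the fit the day 3 values were 3.22 for the upstream Fn1 probe, 3.27 for Tagln, 2.63 for the downstream Eln probe, 2.91 for Fbn1 and 0.67 for Acta2, and the day 7 values were 1.18 for Pdgfra, 1.02 for Pdgfrb and -2.03 for Ccn2. Every direction named here was the same on each slide and under the block. For all of these but Acta2, no array of the injured group overlapped sham, so the sign within a slide could not differ. The slides divide the same arrays and are not separate replications.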

How the data were processed

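RNA of the left kidney was labelled with Cy3 and hybridised to single-colour rat arrays, per the labels. Agilent Feature Extraction 9.5.1.1 read the spots, and the probes are placed on rn4, per the file headers. Processed signals are intensities after background subtraction, per the file headers, with no scaling between arrays. Mean spot signals and local backgrounds are intensities too, per the file headers, and flags for signal above background, saturation and outliers are 0 or 1. The authors' deposited value table holds log2 values, found by comparison to be relative to the array's 75th percentile and the probe's median over the arrays (lowest correlation with remade values 0.998). It served as an alternative.

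Here log2 processed signals minus the 75th percentile of the array were used. Outlier spots were dropped and repeat spots averaged per probe. Of 30367 probes 21071 were kept, and the brightest stood for a gene in lists (18517 genes). Probes were named through a GRCr8 table by accession (17998), symbol (2359) or synonym (615). 9395 kept their name. Probes were fitted with limma 3.58.1 (lmFit, then eBayes; R 4.3.3) with 1 mean per group over all 12 arrays, two-sided p values and Benjamini-Hochberg adjustment over all probes. The script was tested on simulated data. Probe and gene pairs were compared by exact permutation over arrays.

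The genes and lists were chosen with earlier results of these data known. Named are all 10 genes, up to 3 called genes with the largest change per pathway list and comparison, the gene with the largest change in each cell type list, and the 3 nearest genes of each gene, of which 1 is not reported here. Some genes were set out after their values were seen. These were Myh11, Actg2, Des, Smtn, Mylk, Myocd, Efemp1 and Efemp2 at day 3. They also include Col1a1, Col3a1, Notch3, Rgs5, Cspg4 and Mcam in the fibroblast list and Ccn1 beside Ccn2. Itga5, Itgb1, Pdgfc, Plcg1, Bgn, Cd44, Dcn and Lum at day 3 were set out in that way too. Replicate numbers do not pair the rats: for 12 pairs of arrays with the same number, correlations of deviations from group means ran from -0.332 to 0.139, with 2 above 0.1. Alternatives were other background corrections, scalings, filters, blocks for slide, scan batch or replicate number, fits of 2 groups, 1 probe per gene, and each array left out.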

Additional observations from a re-analysis of the deposited data

Results flagged for a closer look

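Postn in sham replicate 3 read -5.50, while the other sham kidneys read -6.45 to -6.31, so this value stood apart by Dixon's criterion for 4 values. The probe was not well above background on any of these arrays. Of 39 groups of 4 tested this was the 1 flagged, and chance flags about 1 in 20.

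The change from sham differed between day 7 and day 3 for 5 probes, as tested by the limma contrast of the days. The difference was -2.26 for Tagln, -1.74 for the downstream and -1.29 for the upstream Fn1 probe, -1.24 for Acta2 and -1.22 for Ccn2. The kidneys of the days did not overlap in the first 4 of these, and they did in Ccn2.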

How the results depend on the processing

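Under normexp background correction, 6, 1 and 0 of the 11 probes passed against sham on day 3, against sham on day 7 and between the days, in place of 9, 7 and 5, and 3428, 92 and 176 of all probes passed, against 11903, 3866 and 6480. Under normexp fitted without the spots below their local background the counts were 11, 7 and 6, and 13369, 3893 and 8759. There the call of Ccn2 between the days was lost (-0.49, adjusted p = 0.0633). Calls gained there at day 3 were Ccn2 (-0.70) and the downstream Vcan probe (-0.76), both as lower. Between the days they were Fbn1 (-0.78) as lower and that Vcan probe (0.61) as higher. Fitted on 2 groups alone, 2285 of all probes passed at day 7. Leaving out each array gave 8 to 9, 7 to 8 and 4 to 5 of the 11 probes, and 10404 to 11792, 2293 to 3833 and 3832 to 6832 of all.

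Signs turned for the downstream Vcan probe at day 7 (0.207 under total signal, 0.048 by the authors' values, and from -0.37 to 0.36 with an array left out) and for Pdgfra between the days (0.0107 without day 3 replicate 3, 0.0317 without day 7 replicate 3, and -0.17 at the lowest). Under normexp the upstream minus downstream Fn1 difference turned to 1.76, 1.64 and -0.12 in the 3 comparisons, the Vcan probe difference at day 3 to 0.0657 and Fn1 minus Fbn1 at day 7 to 1.12. Within single slides, which give no test, 31 fold changes moved by more than the spread between replicates, such as Acta2 at day 3 (0.16 to 1.08) and Fbn1 at day 3 (1.60 to 4.00). The cause was not tested. Replicate numbers do not pair the rats, and with the replicate number as a block 9, 7 and 5 of the 11 probes passed, and 11404, 2726 and 5188 of all. Signal near background limits Postn, Vcan and the sham readings of the downstream Fn1 probe and Fbn1.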
